A study of Rattus norvegicus with 18 samples.

Results

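The growth hormone (GH) and insulin-like growth factor (IGF) axis was followed in the liver transcriptome of the BarNa rat, a model of nonalcoholic steatohepatitis (NASH). Its 10 members were chosen by gene symbol from the 32623 genes of the deposited tables, and all 10 were among the 12904 genes tested. They were Ghr, Stat5b and Socs2 on the hormone's side, Igf1 and Igfals among the secreted products, Igfbp1, Igfbp2, Igfbp3 and Igfbp4 among the binding proteins, and Igf1r as the receptor. All rats were male Wistar, with 1 liver library from each of 6 control, 6 NASH and 6 NASH-CH animals. Control rats received chow and normal water for 12 weeks. NASH rats inhaled carbon tetrachloride (CCl4), a hepatotoxin, for 6 weeks while drinking phenobarbital, an inducer of liver enzymes, and were then fed a diet rich in fat and cholesterol (HFCD) for the next 4. NASH-CH animals were given CCl4 and phenobarbital for 24 weeks, with the HFCD over the last 16. These periods follow the paper's methods, whereas the sample labels give 10 and 24 weeks of combined treatment. Since the control period matched neither model, duration and age cannot be told apart from condition.

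GH from the pituitary binds its receptor on hepatocytes, which activates the kinase JAK2 and the transcription factor STAT5b. STAT5b drives transcription of Igf1, of Igfals and of the feedback inhibitors Socs2 and Cish, and in the rat the pulsatile GH of males sets the sex-biased pattern of liver cytochrome P450 genes. IGF-I circulates mostly in a complex with IGF-binding protein 3 and the acid-labile subunit encoded by Igfals, while Igfbp1 is a short-term target of insulin and fasting. Hepatocytes make most of the circulating IGF-I and carry little of its receptor.

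Of the 10 members, 0 passed the test in NASH and 1 in NASH-CH livers, where 3.12% and 17.0% of all tested genes passed, so the count sets the members apart in neither. In NASH-CH livers Igf1 fell by 23.5% (95% confidence interval of the change from -36.0% to -8.67%). That call held in only 11 of 18 fits that left out 1 rat and in 9 of 11 other ways of processing. Between the models 0 members passed the test by limma-voom. Groups overlapped for every member, and Socs2, Igfbp1 and Igfbp2 varied between rats of a group more than nearly all other genes.

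Promoter sequence is shown for Igf1, the member that passed the test in NASH-CH, for Igfbp1, the insulin target among the members, and for Cish, a feedback gene of the same hormone. RefSeq windows on the GRCr8 assembly, another build than the Rnor_6.0 used for the counts, were at hand for 9 of the 10 members, all but Socs2. Each window was searched on both strands for TTCNNNGAA, the palindrome that STAT5 binds, and for CAAAACA, the core of the insulin response element, which do not overlap each other in the matches found. TTCNNNGAA was in 0 of the 9 members' windows and occurred 4 times in that of Cish, against 8.87% of 33469 rat windows with a match. CAAAACA was in the windows of Igf1, Igfbp1 and Cish, against 6.28% of all windows. The first bases of the matches lay at -67 in Igf1 and -121 in Igfbp1 from the annotated start. A match of letters is a description of the window only, and known STAT5 sites of Igf1 lie far outside it. The 250 bases before each start are printed 5′ to 3′ on the plus strand, with CAAAACA in capitals in Igf1 and Igfbp1 and TTCNNNGAA in capitals in Cish.
Igf1, chr7:24172282-24172531, plus strand: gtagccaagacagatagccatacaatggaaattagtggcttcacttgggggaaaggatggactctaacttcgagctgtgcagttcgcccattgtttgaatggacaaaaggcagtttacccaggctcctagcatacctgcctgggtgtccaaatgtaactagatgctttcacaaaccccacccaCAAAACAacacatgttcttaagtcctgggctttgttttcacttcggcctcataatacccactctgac
Igfbp1, chr14:86261027-86261276, plus strand: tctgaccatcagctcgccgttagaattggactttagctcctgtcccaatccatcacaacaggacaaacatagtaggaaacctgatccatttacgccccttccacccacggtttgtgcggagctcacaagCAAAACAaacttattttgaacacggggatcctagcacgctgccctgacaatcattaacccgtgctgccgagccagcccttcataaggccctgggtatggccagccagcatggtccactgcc
Cish, chr8:116850719-116850968, plus strand: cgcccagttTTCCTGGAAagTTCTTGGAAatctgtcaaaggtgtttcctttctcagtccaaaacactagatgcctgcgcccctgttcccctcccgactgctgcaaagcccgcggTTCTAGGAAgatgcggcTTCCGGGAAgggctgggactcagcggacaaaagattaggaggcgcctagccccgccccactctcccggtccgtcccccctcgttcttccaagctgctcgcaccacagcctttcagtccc

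Depth, the share of small RNA and cell markers differed between the groups. NASH-CH libraries held 44680344 to 60117822 expected counts, against 19498534 to 27174015 in control and 20827770 to 29491947 in NASH livers, so depth and that condition cannot be told apart. Small non-coding and SRP RNA genes held 16.1 to 22.3% of the counts in control livers. Their share was 14.7 to 17.3% in NASH and 11.1 to 13.1% in NASH-CH livers, without overlap between control and NASH-CH. The part of this share in the results of scaling by library total was not tested. Values are given in CPM, counts scaled to a common library size, here by the TMM method, which are not per transcript length and therefore are not compared between genes. The 8 hepatocyte markers, all detected, summed to 133635 to 190443 CPM in control, 95446.9 to 156107 in NASH and 88907.5 to 144555 in NASH-CH livers. Their median log2 fold change was -0.19 in NASH, with 1 of 8 lower, the lipoprotein gene Apoa1, and 0 higher. In NASH-CH it was -0.17, with 3 of 8 lower, namely Apoa1, Alb and Ttr, and 0 higher. Apob and Cps1 ran the other way without passing, with means of 9017 and 3686 CPM in control, 11872 and 3962 in NASH and 11458 and 4108 in NASH-CH livers. Alb was the largest part of the sums, with medians of 100495, 73317 and 72998 CPM. Markers of cholangiocytes (3 of 5 tested), lymphocytes (2 of 6) and neutrophils (1 of 4) gave 0 calls against control by limma-voom in either model. Cholangiocyte markers summed to 7.27 to 9.25 CPM in control, 5.71 to 11.4 in NASH and 5.63 to 35.4 in NASH-CH livers. Lymphocyte markers summed to 6.29 to 13.1, 8.38 to 12.3 and 10.1 to 22.1 CPM, and the neutrophil marker had 0.0717 to 1.14, 0.0839 to 0.695 and 0.276 to 2.53. Fewer cells of a type and less RNA per cell cannot be told apart in whole liver, and the part of these markers in the results below was not tested.

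**Figure D1:**
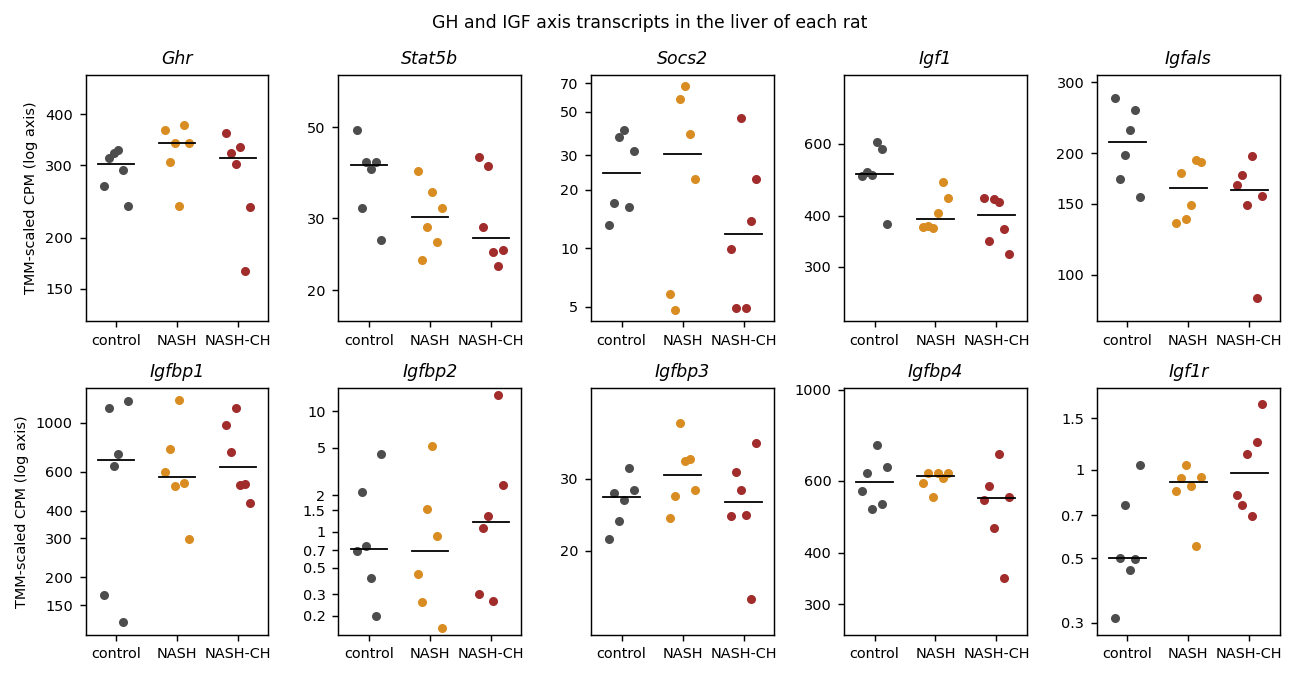
Level of each of the 10 members in every rat, in TMM-scaled CPM on a log axis, with 1 point per rat, 6 rats per group and a bar at the group median. The 3 groups overlapped for every member, and for Igf1 5 of the 6 control rats sat above all 12 rats of the models.

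The comparison of NASH with control livers asked whether the early model altered the axis. It called 0 of the 10 members by limma-voom, with 2 of 10 at an unadjusted p under 0.05, Igf1 and Igfals. Over all tested genes 3.12% were called (1.58% higher and 1.54% lower) and 21.5% had an unadjusted p under 0.05. The edgeR and DESeq2 tests also called 0 members. The members' median log2 fold change was -0.060, with 5 below and 5 above 0, beside a median of 0.0072 over all tested genes, and 0 members had groups that did not overlap, against 1.77% of all tested genes on the higher and 1.39% on the lower side.

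The comparison of NASH-CH with control livers asked the same of the longer model. It called 1 of the 10 members, Igf1, which was lower, while 17.0% of all tested genes were called (8.38% higher and 8.60% lower). An unadjusted p under 0.05 was found for 3 of 10, namely Igf1, Igfals and Igf1r, against 31.7% of all tested genes. The members' median log2 fold change was -0.127, with 7 below and 3 above 0, beside 0.013 over all tested genes, and again 0 members separated the groups without overlap, against 3.64% of all tested genes on the higher and 3.46% on the lower side. The count of members called did not exceed the share of all genes called.

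**Figure D2:**
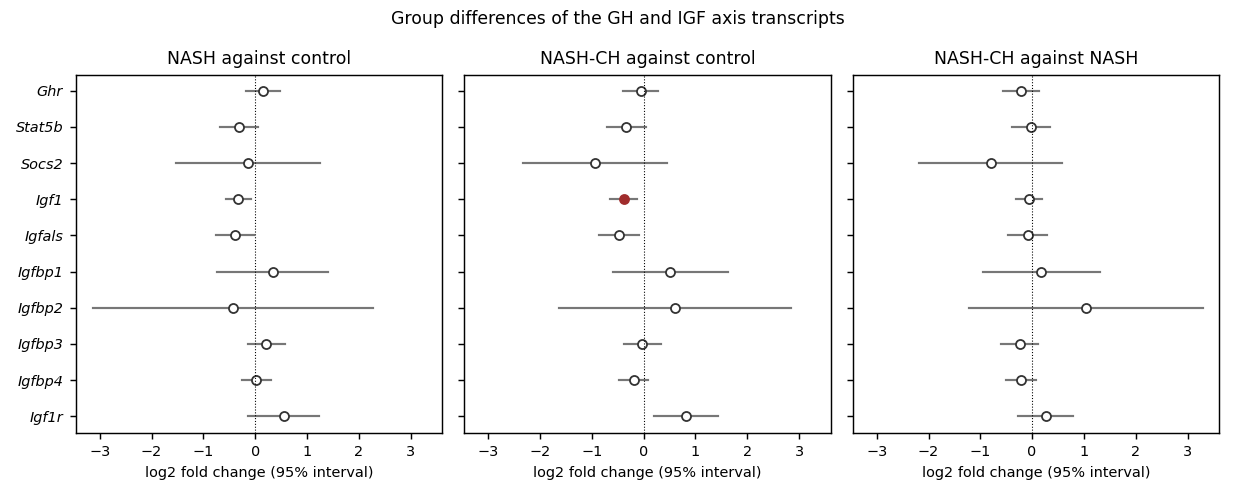
Log2 fold change of each member in the 3 comparisons (horizontal axes), with the 95% confidence interval as a line, from limma-voom on 6 rats per group. A filled point marks an adjusted p under 0.05. The Igf1 interval in NASH-CH lies below 0 at -0.64 to -0.13, and the widest intervals are those of Igfbp2.

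Igf1 encodes the circulating growth factor itself. Its level ran from 383 to 604 CPM in control livers (median 506), from 373 to 484 in NASH (median 392) and from 323 to 442 in NASH-CH (median 401). All 12 rats of the models lay below the control median, and 5 of the 6 controls, the lowest of them at 501 CPM, lay above every one of these 12. The remaining animal, control 6, had 383 CPM, within the range of both models.

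The log2 fold change of Igf1 in NASH-CH was -0.39 (SE 0.12, adjusted p = 0.0365 by limma-voom). In NASH it was -0.32 (SE 0.12, adjusted p = 0.126), a difference of -20.0% with an interval from -32.7% to -5.03%. Between the models the log2 difference was -0.064 (interval from -0.32 to 0.19, adjusted p = 0.842), so the levels of the models were not distinguished from each other. In NASH the gene passed the test once 1 animal was left out, control 6, with a log2 fold change of -0.40 and an adjusted p of 0.0360.

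The NASH-CH call of Igf1 was lost when any of control 1, 2, 3, 4 or 5 or NASH-CH 2 or 6 was left out, with adjusted p-values up to 0.0886 and log2 fold changes from -0.47 to -0.33 over the 18 fits. It was also lost when the NASH rats were kept out of the fit, at -0.38 with an adjusted p of 0.0796, and when libraries were scaled by total alone, at -0.13 with an adjusted p of 0.390. Scaling by total moved the median of all tested genes to 0.27 in NASH-CH and 0.23 in NASH, and relative to that median Igf1 stood at -0.39 and -0.32.

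Igfals encodes the acid-labile subunit, which keeps IGF-I in its long-lived complex in plasma and is made by hepatocytes. It measured 156 to 275 CPM in control livers (median 213), 134 to 192 in NASH (median 164) and 87.3 to 197 in NASH-CH (median 162). All rats of both models lay below the control median, and 3 NASH and 2 NASH-CH rats lay below every control. In NASH the log2 fold change was -0.39 (SE 0.17, adjusted p = 0.202). NASH-CH livers gave -0.47 (SE 0.18, adjusted p = 0.0796), and neither value passed the test. In NASH-CH the gene passed by DESeq2 (adjusted p = 0.0455) and without control 6 (log2 fold change -0.56, adjusted p = 0.0413).

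On the side of the hormone receptor, 0 of 3 members passed the test in either model, which does not show that they were unchanged. Ghr, the GH receptor, ran from 239 to 327 CPM in control livers (median 303), from 239 to 376 in NASH (median 340) and from 166 to 361 in NASH-CH (median 313). Its log2 fold change was 0.15 in NASH (interval from -0.18 to 0.48) and -0.059 in NASH-CH (interval from -0.40 to 0.28). These intervals leave room for a change of up to 39.7% upward in NASH.

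Stat5b, the transcription factor that carries the GH signal, ran from 26.5 to 49.2 CPM in control livers (median 40.3), from 23.7 to 39.0 in NASH (median 30.2) and from 22.9 to 42.2 in NASH-CH (median 26.8). All 6 NASH rats and 5 of 6 NASH-CH rats lay below the control median. Neither the log2 fold change of -0.31 in NASH (SE 0.17, adjusted p = 0.306) nor that of -0.33 for NASH-CH (SE 0.18, adjusted p = 0.204) passed the test. Stat5a is a near copy next to Stat5b in the genome, and all 18 deposited expected counts of Stat5b were fractions, so its level is given as uncertain.

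Socs2, the feedback inhibitor of GH signalling, was among the most variable genes. It measured 13.1 to 40.4 CPM in control livers (median 24.4), 4.80 to 68.2 in NASH (median 30.6) and 4.92 to 46.5 in NASH-CH (median 11.9). The rats NASH 1, NASH 2, NASH-CH 2 and NASH-CH 4 had under 6 CPM and NASH-CH 1 had 9.95, all below every control, while NASH 3, NASH 4 and NASH-CH 3 exceeded every control. The log2 fold changes were -0.14 in NASH (interval from -1.53 to 1.25) and -0.94 in NASH-CH (interval from -2.33 to 0.45), with adjusted p-values of 0.928 and 0.347. No change of Socs2 was detectable at this spread between rats.

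Cish, another inhibitor that GH induces through STAT5, was listed among the genes around the axis. It measured 16.8 to 44.0 CPM in control, 11.1 to 74.2 in NASH and 7.62 to 62.4 in NASH-CH livers. The 4 rats with Socs2 under 6 CPM had Cish at 11.1, 21.1, 7.62 and 13.0 CPM. The NASH log2 fold change was 0.060 (adjusted p = 0.955), and that of NASH-CH was -0.70 (adjusted p = 0.326). All values share the library's scaling, and the plot of pairs of genes shows them rat by rat.

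**Figure D3:**
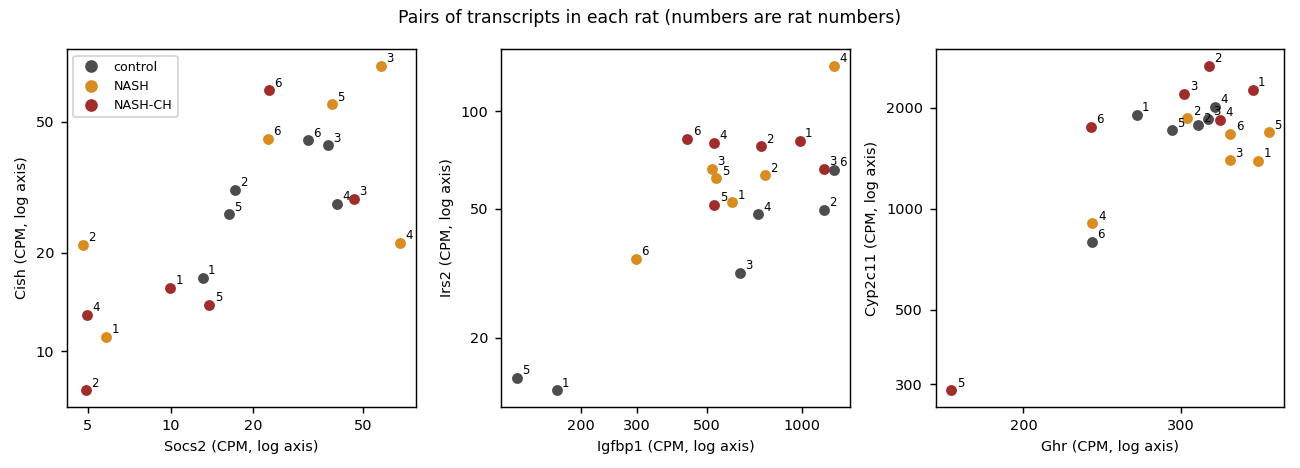
Levels per rat of Socs2 and Cish, Igfbp1 and Irs2, and Ghr and Cyp2c11 in TMM-scaled CPM on log axes, with 1 numbered point per rat and the groups by colour, as a description with no test. Controls 1 and 5 lie apart from the other rats for Igfbp1 and Irs2, and NASH-CH 5 for Ghr and Cyp2c11.

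Among 15 listed genes of the pituitary and GH receptor side, 13 were tested and 1 was higher in NASH and 2 in NASH-CH, with 0 lower and median log2 fold changes of 0.060 and 0.086. Sirpa, a membrane receptor that recruits SH2-domain phosphatases and is also abundant on macrophages, rose in both. It measured 6.49 to 11.4 CPM in control, 11.6 to 17.5 in NASH and 16.4 to 34.4 in NASH-CH livers, so that neither model overlapped the controls. Groups without overlap on the higher side made up 1.77% of all tested genes in NASH and 3.64% in NASH-CH.

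Sirpa rose by 0.72 on the log2 scale in NASH (SE 0.20, adjusted p = 0.0497), and the increase for NASH-CH was 1.38 (SE 0.19, adjusted p = 9.29e-05). In NASH it passed in 7 of 18 fits that left out 1 rat, and in NASH-CH in all 18. Of the markers of Kupffer cells and macrophages, 1 of 8 tested was lower in NASH and 6 of 8 in NASH-CH, while Cd68 had log2 fold changes of 0.067 and 0.15 that did not pass. They summed to 269 to 489 CPM in control, 189 to 279 in NASH and 161 to 251 in NASH-CH livers, and their part in the Sirpa values was not tested. By staining of sections, the paper reported more CD68- and CD163-positive macrophages in NASH-CH than in control livers. In NASH these cell counts were higher without reaching significance. Marker RNA in whole liver is therefore not read here as a number of macrophages. Lepr, the leptin receptor, rose in NASH-CH by 1.01 (SE 0.31, adjusted p = 0.0332) from 1.98 to 10.4 CPM in control to 7.07 to 12.8 CPM, with overlapping groups. It passed in 12 of 18 fits with 1 rat left out and in 8 of 11 alternatives, not by edgeR (adjusted p = 0.0521). The kinase Jak2 had log2 fold changes of -0.0038 and 0.086.

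GH-dependent sex-biased liver genes gave another view of the hormone's action. Of 13 listed, 8 were tested, and 1 rose in each model, with median log2 fold changes of -0.039 in NASH and -0.23 in NASH-CH. Cyp4a2 had more than 1 tested entry, and each of its entries counted in these medians. The gene that rose was Cyp3a2, a male-predominant cytochrome P450 that phenobarbital is also known to induce. It measured 451 to 1000 CPM in control livers, 1158 to 2157 in NASH and 764 to 1966 in NASH-CH. The increase was 1.31 on the log2 scale in NASH (adjusted p = 0.00759), and 1.24 for NASH-CH (adjusted p = 0.00185). NASH and control rats did not overlap, and since the gene has near copies in its family its counts are uncertain.

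Cyp2c11, the main male-specific cytochrome P450 of rat liver, measured 797 to 2012 CPM in control, 905 to 1862 in NASH and 288 to 2672 in NASH-CH livers. Its female counterpart Cyp2c12 measured 4.54 to 17.98, 3.13 to 8.15 and 2.32 to 107 CPM. The lowest Cyp2c11 and the highest Cyp2c12 of the 18 rats were in the same animal, NASH-CH 5.

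The binding proteins gave 0 calls of 4 in either model. Igfbp3, carrier of most circulating IGF-I and in liver known mainly from non-parenchymal cells, ran from 21.3 to 31.9 CPM in control livers (median 27.1), from 24.0 to 40.9 in NASH (median 30.6) and from 15.2 to 36.7 in NASH-CH (median 26.3). Its log2 fold changes were 0.22 (interval from -0.14 to 0.57) and -0.027 (interval from -0.39 to 0.33). Markers of sinusoidal endothelium, 6 of 7 tested, gave 0 calls in either model and summed to 256 to 352 CPM in control, 315 to 355 in NASH and 172 to 306 in NASH-CH livers.

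Igfbp4, a binding protein that restrains IGF action, ran from 512 to 735 CPM in control livers (median 596), from 548 to 628 in NASH (median 617) and from 348 to 698 in NASH-CH (median 543). The NASH interval of -0.26 to 0.30 around a log2 fold change of 0.020 was the narrowest of the binding proteins. In NASH-CH the value was -0.20 (interval from -0.48 to 0.091, adjusted p = 0.342), and 5 of 6 rats lay below the control median.

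Igfbp1, the binding protein that insulin represses, varied 10.0-fold between control rats. It measured 126 to 1260 CPM in control livers (median 679), 297 to 1262 in NASH (median 567) and 433 to 1170 in NASH-CH (median 633). Control 1 and control 5, at 167 and 126 CPM, lay below every other rat. The same 2 animals had the lowest control values of Irs2, an adaptor of the insulin receptor that is likewise repressed by insulin, at 13.8 and 15.1 CPM against 31.8 to 65.8 in the other controls. Other insulin-responsive genes varied between controls from 1.64-fold (G6pc) and 1.65-fold (Pck1) to 9.70-fold (Fgf21). The insulin or feeding state of these single rats was not tested here. By group, the paper reported raised plasma insulin and an abnormal glucose tolerance test in both models. The part of insulin in the values of these genes was not tested. For Igfbp1 the NASH log2 fold change was 0.34 (SE 0.51, adjusted p = 0.747) and the NASH-CH value 0.51 (SE 0.53, adjusted p = 0.534), and the first changed sign by edgeR (-0.039) and DESeq2 (-0.045). The NASH-CH value was 0.10 by edgeR and 0.093 by DESeq2, and ran from 0.11 without control 5 and 0.18 without control 1 to 0.78 without control 6.

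Igfbp2, a binding protein of fetal and regenerating liver, was near the lower limit of these libraries. Its counts were 4 to 122 in control, 5 to 123 in NASH and 12 to 1059 in NASH-CH livers, that is 0.198 to 4.37, 0.158 to 5.16 and 0.262 to 13.8 CPM. In each group 1 rat stood highest, namely control 6, NASH 4 and NASH-CH 5. The log2 fold changes were -0.43 (interval from -3.14 to 2.27) and 0.60 (interval from -1.64 to 2.84), so that no change was detectable at this spread. Without NASH-CH 5 the value in NASH-CH was -0.25.

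Igf1r, the IGF-I receptor, was barely detected. Its counts were 5 to 29 in control, 16 to 30 in NASH and 32 to 96 in NASH-CH livers, that is 0.312 to 1.04 (median 0.499), 0.548 to 1.04 (median 0.912) and 0.699 to 1.67 CPM (median 0.978). All rats of both models lay above the control median, and 3 from the NASH-CH group exceeded every control. In NASH the log2 fold change was 0.55 (SE 0.33, adjusted p = 0.349). The NASH-CH value was 0.81 (SE 0.29, adjusted p = 0.0636), a fold of 1.76.

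Neither passed the test, but the NASH-CH difference of Igf1r passed by edgeR (adjusted p = 0.0491), by DESeq2 (adjusted p = 0.0381), without a filter on low counts (adjusted p = 0.0409), with scaling by library total (adjusted p = 0.0321) and without control 6 (log2 fold change 1.02, adjusted p = 0.0315) or NASH-CH 4 (0.91, adjusted p = 0.0401). Markers of stellate cells and myofibroblasts, of which 7 of 8 were tested, gave 0 higher and 1 lower in NASH and 3 higher and 1 lower in NASH-CH. They summed to 274 to 369 CPM in control, 223 to 302 in NASH and 275 to 422 in NASH-CH livers.

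Receptors, ligands and further binding proteins around the members gave 0 calls in NASH among 7 tested of 10 listed, with a median log2 fold change of 0.20, and 1 higher in NASH-CH, with a median of 0.12. The gene was Igf2r, which clears IGF-II from the cell surface, at 21.1 to 49.4 CPM in control and 33.7 to 84.6 in NASH-CH livers (log2 fold change 0.63, SE 0.21, adjusted p = 0.0443). It passed in 5 of 18 fits that left out 1 rat. The insulin receptor Insr had log2 fold changes of 0.25 in NASH and 0.12 in NASH-CH, neither of which passed.

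Proteases of the binding proteins and their inhibitors gave 0 calls of 6 tested in NASH and 2 higher in NASH-CH, with medians of 0.11 and -0.013. Stc1, encoding stanniocalcin 1, an inhibitor of the pappalysin proteases, rose by 1.10 (SE 0.36, adjusted p = 0.0422) with 0.143 to 0.545 CPM in control and 0.348 to 0.870 in NASH-CH livers, which overlapped, and passed in 8 of 18 fits with 1 rat left out. Htra3, a serine protease, rose by 1.90 (SE 0.49, adjusted p = 0.0139) with 0.125 to 0.555 CPM in control and 0.502 to 2.39 in NASH-CH livers, which overlapped, and passed in all 18. Counts per rat were as low as 4 for Stc1 and 2 for Htra3. Pappa and Pappa2, the pappalysins, and Stc2 did not pass the filter on low counts.

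Downstream of the receptor, all 15 listed genes of insulin and IGF receptor signalling were tested, with 2 lower in NASH and, in NASH-CH, 1 higher and 1 lower. The medians were 0.25 and 0.16. In NASH the kinases Akt1 and Akt2 fell by 0.44 (SE 0.10, adjusted p = 0.0291) and 0.41 (SE 0.095, adjusted p = 0.0275) on the log2 scale. Akt2 had 23.7 to 31.4 CPM in control against 19.7 to 23.4 in NASH livers, without overlap, as in 1.39% of all tested genes on the lower side. With 1 rat left out Akt1 passed in 11 and Akt2 in 10 of 18 fits.

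In NASH-CH, Irs2 rose by 1.18 (SE 0.38, adjusted p = 0.0377) from 13.8 to 65.8 CPM in control to 51.5 to 82.2, and Pdk1 fell by 0.64 on the log2 scale (SE 0.20, adjusted p = 0.0376). Pdk1 is the symbol of pyruvate dehydrogenase kinase 1 and not of the kinase that activates AKT, Pdpk1. With 1 rat left out Irs2 passed in 10 and Pdk1 in 12 of 18 fits, and Irs2 did not pass by edgeR (adjusted p = 0.0606). The controls lowest for Irs2 were those lowest for Igfbp1. Foxo1, the transcription factor that AKT keeps out of the nucleus, measured 7.67 to 13.6 CPM in control and 14.3 to 26.5 in NASH livers without overlap, yet its log2 fold change of 0.68 did not pass (adjusted p = 0.0841).

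Insulin-responsive metabolic genes, 7 listed and 7 tested, gave 0 calls in NASH and 1 lower in NASH-CH, with medians of -0.0094 and 0.021. Fgf21, a hormone secreted by the liver, fell by 1.69 on the log2 scale (SE 0.55, adjusted p = 0.0418) from 5.87 to 56.9 CPM to 2.36 to 9.82, and passed in 9 of 18 fits with 1 rat left out and 7 of 11 alternatives.

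Over these lists, 4 of 56 tested genes were called in NASH (7.14%) and 9 of 56 in NASH-CH (16.1%), Pdk1 among them, beside 3.12% and 17.0% of all tested genes. Each list was chosen with earlier results of these data known.

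The models differed in exposure as well as in length. By the paper's methods, NASH rats received no CCl4 or phenobarbital over their last 4 weeks, whereas NASH-CH rats received them to the end. The sample labels instead give combined treatment for the whole 10 and 24 weeks. Length, age and exposure at sampling therefore cannot be told apart. The comparison between the models asked only whether the axis differed between these protocols. It called 0 of the 10 members by limma-voom and 0 had an unadjusted p under 0.05, whereas 4.20% of all tested genes were called (1.81% higher and 2.39% lower) and 17.5% had such a p. The edgeR and DESeq2 tests called 0 as well. The members' median log2 difference was -0.074, with 7 below and 3 above 0, beside 0.0068 over all genes. Again 0 members had groups without overlap, against 1.36% of all tested genes on the higher and 2.10% on the lower side. Among the 56 listed genes 3 were called (5.36%), namely Sirpa and Htra3, higher in NASH-CH by 0.65 (adjusted p = 0.0489) and 1.69 (adjusted p = 0.0431), and Adam12, a protease of binding proteins, which fell by 1.16 (adjusted p = 0.0144). Sirpa passed in 4, Htra3 in 3 and Adam12 in all 18 of the fits that left out 1 rat.

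The spread between rats differed widely among the members. The pooled SD of log2 CPM between rats of a group was 0.196 for Igf1, 0.232 for Igfbp4, 0.296 for Ghr, 0.318 for Igfbp3, 0.323 for Stat5b and 0.331 for Igfals, beside a median of 0.288 over all tested genes, so that of these 6 Igf1 and Igfbp4 were below that median. Igf1r reached 0.450. Igfbp1 at 0.970, Socs2 at 1.27 and Igfbp2 at 1.74 stood at percentiles 96.3, 98.1 and 99.2 of all tested genes. The order of the members was not tested, and Igfbp2 and Igf1r include the counting error of few reads.

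**Figure D4:**
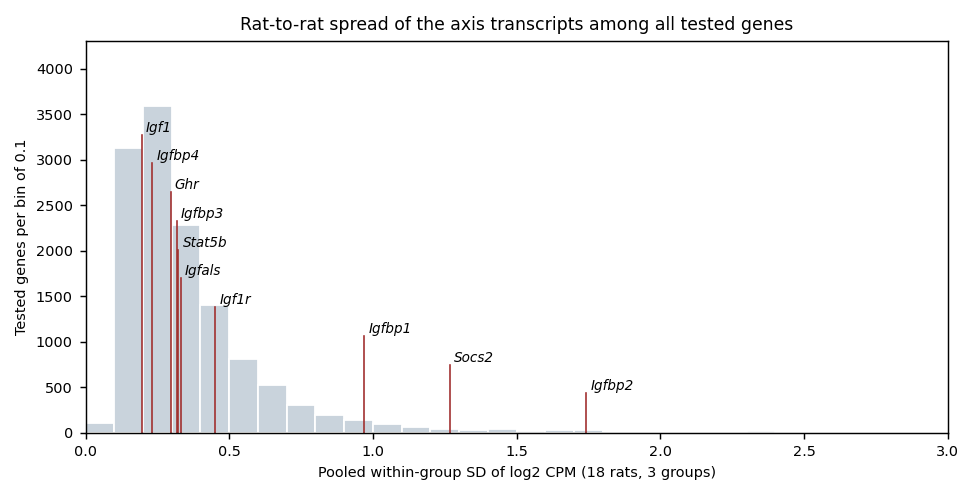
Distribution over the 12904 tested genes of the SD of log2 CPM between rats of a group (horizontal axis, log2 units), with the number of genes on the vertical axis and a mark for each of the 10 members. Igf1 lies below the median of 0.288, and Igfbp1, Socs2 and Igfbp2 lie in the right tail.

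Several rats stood apart for several members. NASH-CH 5 had the lowest level of all 18 rats for Ghr, Stat5b, Igfals, Igfbp3 and Igfbp4 (166, 22.9, 87.3, 15.2 and 348 CPM) and the highest of Igfbp2. It had the highest TMM factor, 1.28, and by library total it was the lowest for Ghr and Igfals alone and still the highest for Igfbp2. It also had the lowest sum of hepatocyte markers, 88908 CPM, and the lowest mean correlation with its group, 0.945. Its levels of cholangiocyte, lymphocyte and neutrophil markers, 35.4, 22.1 and 2.53 CPM, were the highest of the 18 rats. Igf1 in this rat, at 371 CPM, lay inside its group's range. Among controls, control 6 was lowest for Ghr, Stat5b, Igf1 and Igfals and highest for Igfbp1, Igfbp2 and Igf1r, which held by library total except for Ghr. It had the lowest hepatocyte marker sum of the controls, 133635 CPM, and the lowest Cyp2c11, 797 CPM. Without control 6 Igf1 was called in both models, and Igfals and Igf1r in NASH-CH. The part of the markers in these values was not tested.

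**Figure D5:**
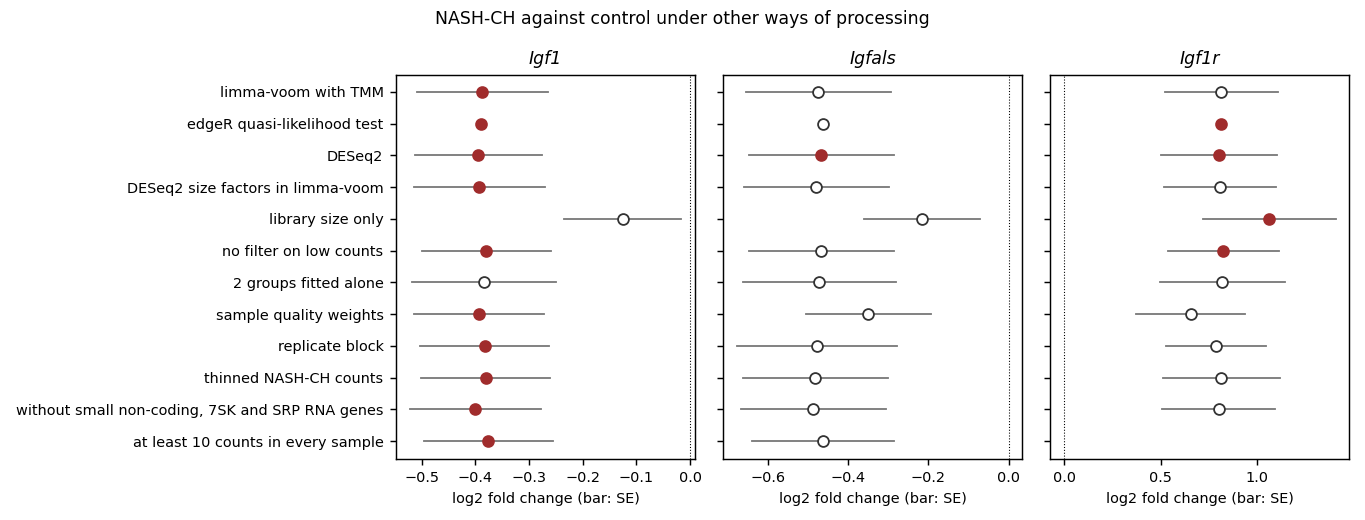
Log2 fold change of Igf1, Igfals and Igf1r in NASH-CH against control livers (horizontal axes), with the SE as a line where the test gives one, for the fit as reported (top) and the alternatives. Filled points mark an adjusted p under 0.05. Igf1 lies near -0.39 in all settings shown but scaling by library total, where it is -0.13.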

How the data were processed

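Liver RNA was profiled with 1 stranded mRNA library per rat in 6 control, 6 NASH and 6 NASH-CH rats. The authors trimmed the reads with Trim Galore, aligned them with STAR to Rnor_6.0 and quantified genes with RSEM, with tool versions not given in the sources used here, and deposited expected counts, not normalized for library size or length. The labels name another RNA kit (RNAqueous-Micro) than the methods (miRNeasy), and they give 10 and 24 weeks of combined treatment.

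Expected counts, of which 41830 values were not whole, were rounded, as deposited otherwise. Genes were filtered with filterByExpr of edgeR 4.0.16 (minimum count 10), scaled by TMM and tested with voom and moderated statistics of limma 3.58.1 in R 4.3.3. All 18 rats entered 1 fit with a mean per group, and p-values were adjusted by the Benjamini-Hochberg method over the 12904 genes tested, with a threshold of 0.05. Spread was taken on log2 CPM with a prior count of 2. Members and lists were chosen with earlier results of these data known. All members were named, and from each pathway list up to 8 genes that passed against control, while other genes (Cish, Jak2, Insr, Foxo1, Adam12, Cyp2c11, Cyp2c12, Cd68, Pappa, Pappa2, Stc2 and named markers) were chosen after their values were seen. Lists covered the GH receptor side, IGF ligands and receptors, proteases, insulin and IGF signalling, GH-dependent sex-biased genes, insulin-responsive metabolism and liver cell types.

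Alternatives were DESeq2 1.42.0, the quasi-likelihood test of edgeR, DESeq2 size factors in voom, library size only, no filter, a minimum of 10 counts in each rat, fits of only the 2 groups compared, weights for sample quality, a replicate block, NASH-CH counts thinned to the depth of the others, exclusion of 4413 small non-coding, 7SK and SRP RNA genes, and leaving out each rat. Scaling by library total for the rats that stood apart and Dixon's ratio on log2 values were chosen after seeing the data. The tests were also run on simulated data, whose outcome is not given here and on which no result rests. Totals ran from 19498534 to 60117822 expected counts per rat, and they give counting error only. Rats of the same group all differed by more than counting error (lowest chi-square over degrees of freedom 28.3), and no rat was left out of the fit as reported. P-values set the difference between groups against the spread between rats.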

Additional observations from a re-analysis of the deposited data

Results flagged for a closer look

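In the 30 sets of 6 rats formed by 10 members and 3 groups, 2 held a rat far from the others by Dixon's ratio, set against its 95% critical value for 6 samples. Chance flags about 1 in 20 such sets of normal values, so 2 of 30 is near what chance gives. Both concerned Igfbp2, a binding protein of fetal and regenerating liver. NASH 4 had 5.16 CPM of Igfbp2, with the next rat of its group at 1.54 CPM (ratio 0.723). NASH-CH 5 had 13.8 CPM, with the next at 2.43 CPM (ratio 0.839). On log2 values, a scale chosen after seeing the data, the ratios of these rats were 0.346 and 0.438 and neither was far from its group, while 2 other sets were, with Igfals lowest in NASH-CH 5 (ratio 0.652) and Igf1r lowest in NASH 5 (ratio 0.678).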

How the results depend on the processing

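The lower Igf1 of NASH-CH passed in 9 of 11 alternatives and not when libraries were scaled by total alone (-0.13, adjusted p = 0.390) or the 2 groups were fitted alone (-0.38, adjusted p = 0.0796), and with 1 rat left out it was lost in 7 of 18 fits. The cause was not tested.

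For NASH-CH against control the count of members called was 2 by edgeR, 3 by DESeq2, 2 without a filter and 0 with 2 groups alone, and ran from 0 to 3 with 1 rat left out, against 1 as reported. With library size only the count was 1, but the gene was Igf1r instead of Igf1. For NASH it was 0 in all 11 alternatives and ran from 0 to 1 with 1 rat left out, and between the models it was 0 throughout.

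Pathway genes called in NASH, 4 as reported, were 9 by DESeq2, 2 without a filter and 10 with quality weights, and ran from 1 to 9 with 1 rat left out. In NASH-CH, 9 as reported, they were 3 with 2 groups alone and up to 13 with library size only or without a filter, and ran from 4 to 8 with 1 rat left out. Between the models, 3 as reported, they were 5 by DESeq2, 1 with library size only, 6 without a filter, 0 with at least 10 counts, 1 with 2 groups alone and 1 without small RNA genes, and ran from 1 to 3.

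Log2 fold changes that changed sign, none of them called in any setting, were those of Ghr in NASH-CH (library size only 0.19, quality weights 0.064, 1 rat left out -0.13 to 0.080), Igfals between the models (quality weights 0.027, 1 rat left out -0.16 to 0.054) and Stat5b between the models (library size only 0.011, quality weights 0.062, 1 rat left out -0.13 to 0.051). Igfbp1 turned in NASH (edgeR -0.039, DESeq2 -0.045, 1 rat left out -0.056 to 0.61) and between the models (-0.022 to 0.38). Igfbp2 turned in NASH (-0.95 to 0.10) and in NASH-CH (quality weights -0.040, 1 rat left out -0.25 to 1.14). Igfbp3 turned in NASH-CH (edgeR 0.0053, library size only 0.22, quality weights 0.048, 1 rat left out -0.12 to 0.11), and Igfbp4 in NASH (-0.029 to 0.078) and NASH-CH (library size only 0.054). Socs2 turned in NASH (edgeR 0.35, DESeq2 0.34, library size only 0.079, 1 rat left out -0.45 to 0.28).

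Rats sharing a number were not described as pairs, and without values for rats of unlike number a shared factor was neither shown nor excluded. Correlations of the deviations of rats sharing a number ran from -0.119 to 0.171 for control and NASH, 0.027 to 0.124 for control and NASH-CH and -0.074 to 0.080 for the models. They were over 0.1 in 2, 1 and 0 of 6 pairs. With the replicate block Igf1 in NASH-CH stood at -0.38 (adjusted p = 0.0437) and no call of a member changed, while Lepr, Igf2r, Stc1 and Fgf21 were no longer called (adjusted p = 0.0747, 0.0692, 0.0817 and 0.0537).

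Over all genes the calls in NASH, 403 as reported, were 652 by edgeR, 1228 by DESeq2, 865 with library size only (785 higher and 80 lower), 644 with 2 groups alone and 1509 with quality weights, and 268 without a filter. In NASH-CH, 2192 as reported, they were 1408 with 2 groups alone, 3270 with library size only (2781 higher and 489 lower) and 5495 without a filter (1529 higher and 3966 lower), where the median of all genes moved to -0.11. Between the models, 542 as reported, they were 949 by DESeq2, 2649 without a filter, 349 with 2 groups alone and 270 without small RNA genes. The filter of 10 counts in every sample left out Igfbp2 and Igf1r. With 1 rat left out the calls ran from 128 (without control 3) to 982 (without control 6) in NASH, from 1519 to 2409 in NASH-CH and from 346 (without NASH 3) to 591 between the models, so the share of all genes called in NASH rests on single rats. Low counts limit Igfbp2, Igf1r, Stc1, Htra3 and Adam12 among the genes named.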
